A study of Mus musculus with 8 samples.

Results

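The genes described here are 35 members of the synaptic vesicle and neurotransmitter release machinery, taken from a list of symbols and found by their mouse Ensembl identifiers in a table of 37315 genes. All 35 symbols matched a single identifier, and all 35 passed the filter on low counts. The RNA came from hippocampal CA1 tissue of 8 Cas9 mice, which had received an adeno-associated virus (AAV) by stereotaxic injection. In 4 mice (2 males and 2 females) the virus carried a guide RNA against SIK3, the group labelled KO, and in 4 (2 males and 2 females) it carried a control guide. All mice of both groups therefore share Cas9, surgery and AAV. Each mouse gave 1 library. Controls 1 and 3 and KO 1 and 2 were males, controls 2 and 4 and KO 3 and 4 were females, and the numbers pair no animals. The age and strain of the mice, the promoter of Cas9, the share of cells that took up virus and the time after injection were not given in the sources used here. Bulk CA1 tissue also holds cells that no virus reached.

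At a presynaptic terminal, vesicles are filled with transmitter by vesicular transporters, tethered by synapsins, and docked at the active zone by large scaffold proteins. Munc13 proteins prime them, SNARE proteins pull the vesicle and plasma membranes together, complexins and tomosyn restrain or assist the SNAREs, and synaptotagmins start fusion when calcium enters. In CA1 these transcripts lie in the cell bodies and processes of pyramidal cells and interneurons. The terminals that end on CA1 dendrites belong largely to CA3 and entorhinal cells, whose messenger RNA lies mostly elsewhere. Markers of CA3 and dentate cells were also present in these libraries, as given below. SIK3, a salt-inducible kinase, acts on histone deacetylases of class IIa and on CRTC, a coactivator of the transcription factor CREB.

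Total counts ranged from 13561662 to 18619928, and all males (13561662 to 15165413) were shallower than all females (16743701 to 18619928). Levels are given as CPM, the counts of a gene scaled to the size of its library. Sik3, the gene the guide targets, stood at 165, 148, 139 and 137 CPM in the controls, listed from 1 to 4 here and throughout, against 75.3, 88.3, 82.9 and 98.4 CPM in the KO mice. It fell by 0.77 on the log2 scale (SE 0.09; edgeR, adjusted p = 0.0202), with every KO library below every control. That call did not hold when control 2, control 3, KO 2 or KO 3 was left out (adjusted p from 0.0865 to 0.242 in edgeR) or with an oligodendrocyte marker score as a covariate (0.0749). Markers of CA1 pyramidal cells, such as Wfs1, Fibcd1 and Mpped1, were present in every library, at a summed level of 780.0 to 813.0 CPM in controls and 797.5 to 844 CPM in KO mice for the 7 markers listed. Single markers varied more than this sum, such as Wfs1 from 86.0 to 150 CPM among the controls. Neurod6 made up the largest part of the sum, at 309 to 351 CPM over all libraries. Of the other cells of the dissection, dentate granule markers summed to 690.7 to 824 CPM in controls and 624 to 766 CPM in KO mice. Oligodendrocyte markers summed to 3146 to 5220 and 2863 to 4521 CPM. These lists varied more than the CA1 sum, whereas CA3 markers, at 347.9 to 367.5 and 354.3 to 375.3 CPM, did not. The part of dentate and CA3 cells in the members' values was not tested. With that oligodendrocyte score as a covariate 0 members passed for the guide in edgeR, but so did 0 of all 14788 genes. Since 0 members passed without the score too, that count cannot show the part of oligodendrocytes.

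No member of the release machinery passed the test for the guide. Across all genes tested, 2 of 14788 passed (0.0135%), and 0 of the 35 members did, with edgeR adjusted p near 1 for each. At an unadjusted p under 0.05 in edgeR there were also 0 members, against 2.81% of all genes. Without KO 1 there were 3 members with such a p, against 10.9% of all genes, the most in any setting run. DESeq2 and limma voom called 0 members too, each with 2 of 14788 genes called. The groups overlapped for all 35 members, and 1.74% of all genes had groups that did not overlap. With shares this small, counts of 0 among 35 members say little about them. The log2 fold changes of the members ran from -0.16 (Syt2) to 0.23 (Slc17a6), 23 positive and 12 negative, with a median of 0.013 beside 0.0036 over all genes tested.

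The spread between mice set how small a change could have been seen. The median standard error of a member's log2 fold change was 0.063, from 0.048 for Syn2 to 0.22 for Doc2a. The 95% interval of the fold change, which is not adjusted for the number of genes, lay within 1.2-fold in both directions for 27 of 35 members and within 1.5-fold for 34, all but Doc2a. In bulk tissue, fewer cells of a type and less RNA per cell cannot be told apart.

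**Figure D1:**
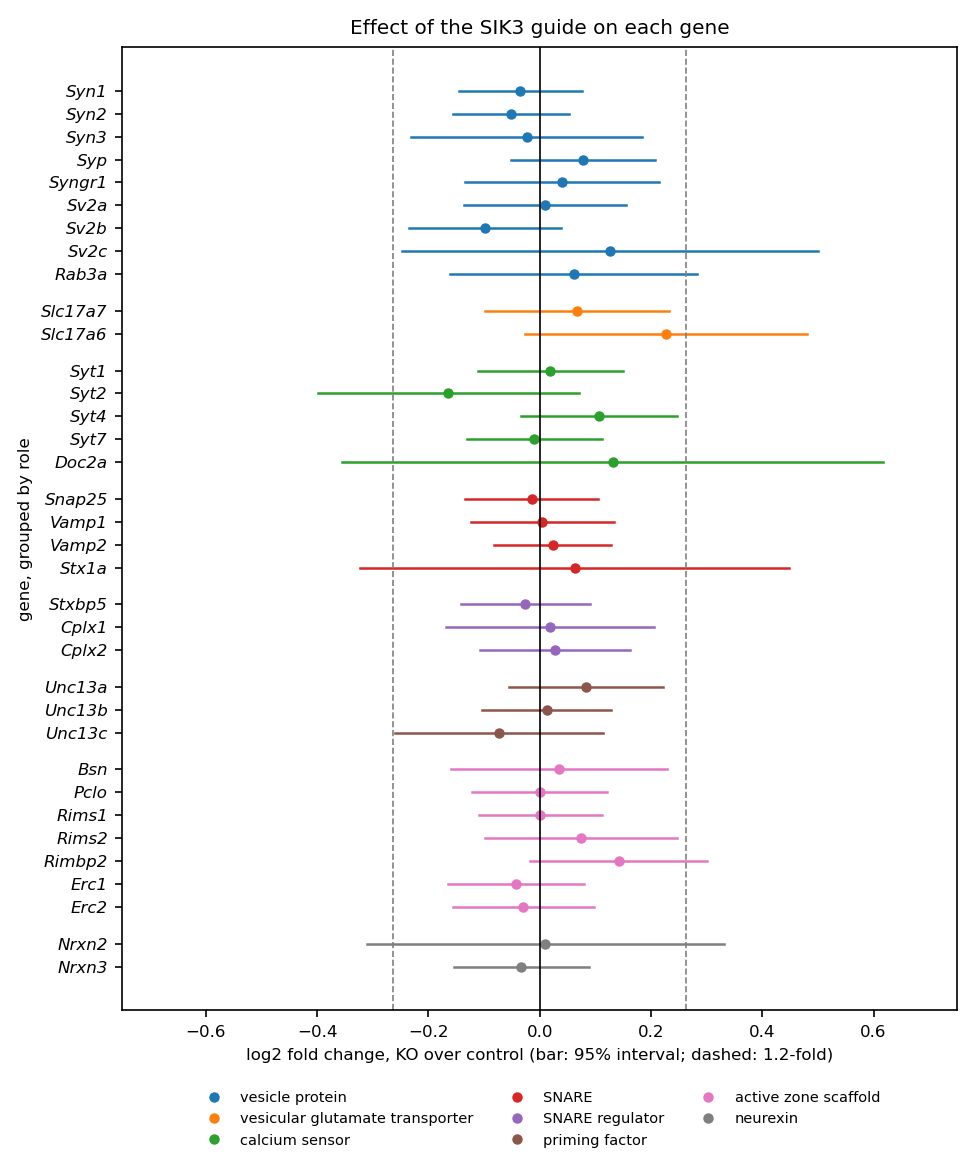
Log2 fold change of each member, KO over control, from the edgeR fit (point) with its 95% interval (bar), grouped by role. All 35 intervals cross 0, and 27 lie between the dashed lines at 1.2-fold.

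Levels of the members were set per kb of exon sequence, the union of all annotated exons of a gene, so that genes can be compared. Orders and shares per kb depend on this choice of length. In controls the levels spanned from 0.690 CPM per kb for Doc2a to 309.8 CPM per kb for Snap25. The order began with the fusion machinery itself: Snap25 (309.8 ± 18.1 CPM per kb, SD, n = 4), the complexin gene Cplx2 (284 ± 14.9), the calcium sensor gene Syt1 (245 ± 12.6) and Vamp2 (201 ± 6.35). Snap25 and Cplx2 were not apart by more than their spread, nor were Cplx1 (94.1 ± 9.02) and Syn2 (93.2 ± 2.55), or Sv2a (64.7 ± 5.52) and Sv2b (63.3 ± 5.33). At the low end stood Unc13c (2.45 ± 0.224), Syn3 (1.5 ± 0.141), Sv2c (1.33 ± 0.239) and Doc2a (0.690 ± 0.0937). Together the 35 members took 1.37% to 1.46% of all counts, with 1.39% to 1.43% in controls and 1.37% to 1.46% in KO mice.

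**Figure D2:**
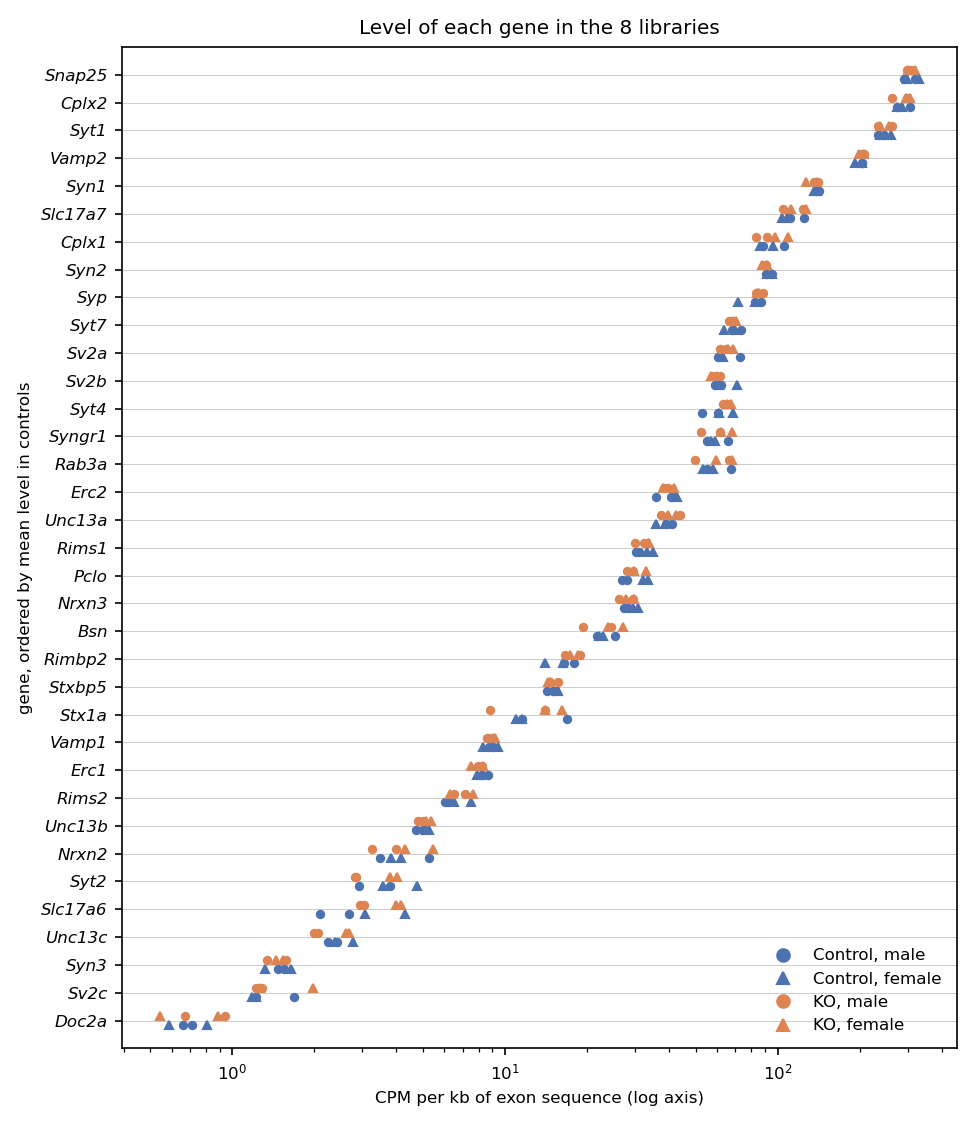
CPM per kb of exon sequence on a log axis for each member in the 8 libraries, ordered by the mean in controls. Snap25 is at the top (309.8 CPM per kb in controls) and Doc2a at the bottom (0.690), and the symbols of both guides lie over each other in every row.

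Vesicle proteins comprised 9 members, with log2 fold changes from -0.099 to 0.13, 5 positive and 4 negative. Syn1 encodes synapsin I, the phosphoprotein that holds vesicles in the reserve pool. Its level was 469, 449, 455 and 460.3 CPM in controls, beside 462, 449, 460.1 and 418 CPM in KO mice. Apart from the low value of KO 4, these libraries were nearly level, and the log2 fold change was -0.035 ± 0.051 (SE), with an interval from 0.904-fold to 1.05-fold. Among the synapsins, Syn1 made up 59.5% ± 0.83 of the summed CPM per kb in controls and 59.7% ± 1.38 in KO mice (SD, n = 4 each), Syn2 39.9% and 39.6%, and Syn3 0.641% and 0.649%. These shares depend on the exon lengths used: in CPM not set per kb, the control mean of Syn2 (655 CPM) was above that of Syn1 (458 CPM). Syn3 itself had a log2 fold change of -0.024 ± 0.095.

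The start of Syn1 is shown because it carries the only complete cAMP response element (CRE) found in the promoters of these members, the site that CREB binds, and CREB is the factor that CRTC coactivates. RefSeq promoter windows (GRCm38.p6, 250 bases before to 50 after each start) were at hand for 27 of the 35 members, in 37 windows, and not for Snap25, Nrxn2, Vamp2, Syt4, Rims2, Doc2a, Syt7 and Syn3. The search used the letters of the complete CRE, TGACGTCA, and of its short core, TGACG, on both strands, so that each complete site also holds the core. It also used TTCAGCACC, the left part of RE1, the element bound by the repressor REST that keeps neuronal genes silent in other cells. Below, capitals mark these letters on either strand, and positions count back from -1 at the base before the start.

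Syn1 (chrX:20921059-20921158, minus strand, from -240): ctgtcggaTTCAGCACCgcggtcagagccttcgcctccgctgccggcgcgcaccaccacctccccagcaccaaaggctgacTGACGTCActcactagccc
Unc13a (chr8:71671758-71671817, minus strand, from -60): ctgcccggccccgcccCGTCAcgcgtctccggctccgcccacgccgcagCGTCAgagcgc
Rab3a (chr8:70754643-70754702, plus strand, from -60): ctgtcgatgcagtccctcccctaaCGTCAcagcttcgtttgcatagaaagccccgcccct
Stx1a (chr5:135023312-135023371, plus strand, from -170): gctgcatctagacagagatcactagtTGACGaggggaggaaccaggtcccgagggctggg

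In Syn1 the letters of RE1 start at -232 and the complete CRE at -159. The complete CRE was found in 1 of 37 member windows, against 1.79% of all 32851 windows, and the short core in 8 of 37 (21.6%), against 20.8% of all windows. The RE1 letters were found in 2 member windows, those of Syn1 and Unc13a, against 0.371% of all windows. The 8 members with the core were Syn1, Syt2, Cplx1, Stx1a, Erc1, Slc17a6, Rab3a and Unc13a. Their log2 fold changes for the guide ran from -0.16 (Syt2, SE 0.11) to 0.23 (Slc17a6, SE 0.12), which are the extremes of all 35 members and of opposite sign. The others with the core ran from -0.043 (Erc1) to 0.083 (Unc13a), and none passed. A match of letters is a description of the sequence and not a bound site.

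Syn2, whose product also clusters vesicles, had the smallest standard error of all members, at a log2 fold change of -0.052 ± 0.048. The SV2 glycoproteins of the vesicle membrane were represented by Sv2a, Sv2b and Sv2c. Sv2a, whose product binds the drug levetiracetam, was at 338, 292, 280.5 and 289.7 CPM in controls and 285, 299.6, 305 and 318 CPM in KO mice, groups that overlapped (log2 fold change 0.010 ± 0.067). Sv2b had 495, 511.5, 520.2 and 596 CPM in controls and 514, 485, 477 and 504 CPM in KO mice. The highest Sv2b value was that of control 4, and the log2 fold change was -0.099 ± 0.063, which did not pass. Sv2c, scarce in hippocampus beside its paralogs, was at 16.3, 11.8, 11.9 and 11.5 CPM in controls and 12.4, 11.9, 19.3 and 12.3 CPM in KO mice. Single libraries, control 1 and KO 3, stood above the others in each group, and the log2 fold change of 0.13 ± 0.17 was 0.28 without control 1 and -0.093 without KO 3. Syp (synaptophysin), Syngr1 (synaptogyrin) and Rab3a, the vesicle GTPase, had log2 fold changes of 0.077 ± 0.059, 0.040 ± 0.080 and 0.061 ± 0.10.

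Vesicular glutamate transporters load glutamate into vesicles. Slc17a7 (VGLUT1), the form of cortical and hippocampal pyramidal cells, was at 674.5, 559, 598 and 583 CPM in controls and 563, 670.1, 606 and 687 CPM in KO mice. Both groups covered nearly the same range, and the log2 fold change was 0.067 ± 0.076. Slc17a6 (VGLUT2; chromosome 7, 51622006 to 51671119 on GRCm38, plus strand), the form of thalamus and other subcortical regions, had the smallest p of all members. Its level was 14.4, 16.6, 11.3 and 23.2 CPM in controls and 15.9, 16.4, 22.4 and 21.5 CPM in KO mice. Within each guide the females were the higher libraries, and the log2 fold change for the guide was 0.23 ± 0.12, which did not pass, with an interval from 0.982-fold to 1.40-fold. Slc17a7 made up 97.3% ± 0.886 of the summed CPM per kb of both transporters in controls and 97.1% ± 0.50 in KO mice (SD, n = 4 each).

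The calcium sensors were 4 synaptotagmins and Doc2a, a high-affinity sensor tied to spontaneous and asynchronous release. Syt1, the fast sensor of forebrain synapses, had 1938, 1987, 2053 and 2181 CPM in controls and 2199, 1944, 2137 and 1982 CPM in KO mice. Its groups covered nearly the same range, with a log2 fold change of 0.019 ± 0.060. Syt2, the fast sensor of hindbrain synapses and of some fast-spiking interneurons, was at 29.0, 27.3, 22.2 and 36.4 CPM in controls and 21.5, 21.7, 28.9 and 30.7 CPM in KO mice. Its log2 fold change of -0.16 ± 0.11 was the most negative among the members and did not pass. Syt4, a synaptotagmin that does not sense calcium in the usual way and that neuronal activity induces, was at 205, 237, 235 and 267.5 CPM in controls and 246, 253.2, 253.2 and 263 CPM in KO mice. The KO libraries were more alike than the controls, and the log2 fold change was 0.11 ± 0.064. Syt7, the slow sensor of facilitation and asynchronous release, had a log2 fold change of -0.0097 ± 0.056. Doc2a rested on few reads, at 1.85, 2.26, 1.99 and 1.64 CPM in controls and 1.88, 2.64, 2.48 and 1.53 CPM in KO mice. Its log2 fold change was 0.13 ± 0.22, and its interval, from 0.781-fold to 1.53-fold, was the widest of all.

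None of the 4 SNARE genes of the fusion complex passed for the guide. Snap25 (chromosome 2, 136713453 to 136782428, plus strand), the plasma membrane SNARE that contributes a pair of helices, was at 1973, 2032, 2167 and 2242 CPM in controls and 2089, 2032, 2162 and 2049 CPM in KO mice. All 4 KO values lay inside the range of the controls, and the log2 fold change was -0.014 ± 0.055. Vamp2 (synaptobrevin 2), the vesicle SNARE, had 779.7, 730.4, 778 and 779 CPM in controls and 791, 776, 793 and 756 CPM in KO mice. Control 2 was the single low library, and the log2 fold change was 0.023 ± 0.048, with an interval from 0.944-fold to 1.09-fold. Vamp2 made up 95.8% ± 0.132 of the summed CPM per kb of Vamp1 and Vamp2 in controls and 95.8% ± 0.159 in KO mice (SD, n = 4 each), and Vamp1 itself had a log2 fold change of 0.0048 ± 0.059. Stx1a (chromosome 5, 135023482 to 135051100, plus strand), the syntaxin of the same complex, varied more, at 45.0, 29.2, 30.8 and 30.9 CPM in controls and 23.6, 37.4, 37.4 and 43.3 CPM in KO mice. Its highest and lowest libraries were males of different guides, control 1 and KO 1, and its log2 fold change of 0.063 ± 0.18 was 0.25 without either of them and -0.099 with a covariate for GC content, the slope of log2 CPM against GC content in each library.

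Complexins clamp and then assist the assembled SNAREs. Cplx2 was at 1505, 1405, 1351 and 1346 CPM in controls and 1294, 1466, 1455 and 1503 CPM in KO mice (log2 fold change 0.028 ± 0.062). Cplx1, the paralog more typical of interneurons and hindbrain, was at 232, 188, 193 and 211 CPM in controls and 183, 200, 213 and 239.6 CPM in KO mice (0.018 ± 0.086). For both genes KO 1 was the lowest library, and the share of Cplx2 in the pair was 75.2% ± 1.34 in controls and 75.3% ± 1.2 in KO mice (SD, n = 4 each). Stxbp5 (tomosyn), which competes for syntaxin and SNAP-25, had a log2 fold change of -0.026 ± 0.053.

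Priming factors of the Munc13 family make docked vesicles ready to fuse. Unc13a, the main form in forebrain excitatory synapses, was at 515.5, 487, 490.3 and 452 CPM in controls and 471, 553.5, 535 and 500.2 CPM in KO mice. KO 2 and KO 3 were above every control, KO 1 and KO 4 were not, and the log2 fold change of 0.083 ± 0.063 did not pass. Unc13b (0.013 ± 0.053) and Unc13c (-0.073 ± 0.085) did not pass either. Unc13c, best known from cerebellar granule cells, was at 19.7, 24.3, 21.3 and 21.0 CPM in controls and 17.6, 18.1, 23.0 and 23.6 CPM in KO mice, where the lowest libraries were the KO males. Per kb, Unc13a took 83.7% ± 1.31 of the family in controls and 84.6% ± 1.30 in KO mice (SD, n = 4 each).

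The active zone scaffolds, 7 members, had log2 fold changes from -0.043 to 0.14. Rimbp2 (chromosome 5, 128757791 to 128953486, minus strand), which links RIM proteins to calcium channels, had the second smallest p among the members. It was at 143, 129, 131 and 111 CPM in controls and 132, 149.9, 137.5 and 147 CPM in KO mice. Control 1 lay among the KO libraries, so the groups overlapped, and the log2 fold change of 0.14 ± 0.073 did not pass (interval 0.988-fold to 1.23-fold). Rims1, a scaffold that binds Rab3 and Munc13, was at 223, 245, 228 and 258 CPM in controls and 238, 221, 248 and 246 CPM in KO mice, with equal group means of 238 CPM. Pclo (piccolo) had 601.5, 720.5, 628 and 752 CPM in controls and 659.8, 629.8, 737 and 668 CPM in KO mice, again with nearly equal means (676 and 674 CPM). Erc2, the ELKS protein of the active zone, was at 349, 409, 394 and 415 CPM in controls and 385, 373, 407 and 369 CPM in KO mice (log2 fold change -0.029 ± 0.058). Bsn (bassoon), Rims2 and Erc1 had log2 fold changes of 0.035 ± 0.089, 0.074 ± 0.079 and -0.043 ± 0.056. An exon of Bsn overlaps the model Gm47303 on its own strand, so its reads may be split in counting.

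The presynaptic adhesion genes Nrxn2 and Nrxn3 closed the list. Nrxn2 was at 73.0, 57.3, 48.0 and 52.7 CPM in controls and 44.8, 55.0, 59.2 and 75.0 CPM in KO mice, with the highest values in control 1 and KO 4 and a log2 fold change of 0.010 ± 0.15. Nrxn3 was steadier, at -0.034 ± 0.056. For 16 members an annotated gene lies on the opposite strand over some exon, among them Syn1 with Araf, Syn2 with Timp4 and Nrxn2 with Slc22a12. The library kit keeps strand, but the strand setting of the counting was not given in the sources used here, so reads of such pairs may not be separated.

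A wider list of 128 further genes of the vesicle cycle was read beside the members. Of these, 126 were matched in the files, 123 were tested and 0 passed in edgeR, with a median log2 fold change of 0.017, 72 positive and 51 negative. At an unadjusted p under 0.05 there was 1 gene (0.813%), against 2.81% of all genes. It was Sh3gl3, an endophilin of vesicle endocytosis, at 23.9, 23.0, 25.5 and 20.9 CPM in controls and 20.6, 19.3, 18.6 and 22.3 CPM in KO mice (log2 fold change -0.20 ± 0.089). Next by p among the negative values were Vamp3, a SNARE of recycling endosomes (-0.15 ± 0.078), and Syt12 (-0.16 ± 0.11). The smallest p among the positive values were those of Ston1, a stonin (0.28 ± 0.13), the phosphoinositide phosphatase gene Synj2 (0.12 ± 0.054) and Syt5 (0.15 ± 0.073). Synj2 was the only gene of this wider list whose groups did not overlap, at 79.5 to 83.9 CPM in controls and 85.7 to 89.2 CPM in KO mice, and it did not pass. By class, medians ran from -0.0017 for further vesicle proteins and transporters to 0.047 for further active zone and priming genes.

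For sex, the log2 differences of some members were larger than any for the guide, although none passed. At an unadjusted p under 0.05 in edgeR there were 5 members for sex (14.3% of 35, against 6.05% of all genes), all higher in females (3.25% of all genes), and 0 passed after adjustment, against 0.0609% of all genes. In 4 members (Slc17a6, Pclo, Rims1 and Unc13b) every female was above every male, against 1.93% of all genes; Rims1 as the fifth by p and Unc13b were chosen after their values were seen. Slc17a6 was at 20.9 ± 2.95 CPM in females and 14.5 ± 2.27 CPM in males (SD, n = 4 each), a log2 difference of 0.53 ± 0.12 (SE; edgeR, adjusted p = 0.364). Syt2 was at 30.8 ± 3.98 and 23.6 ± 3.59 CPM (0.39 ± 0.11), Pclo at 719 ± 36.7 and 629.9 ± 23.8 CPM (0.19 ± 0.056), and Unc13c at 23.0 ± 1.44 and 19.2 ± 1.67 CPM (0.26 ± 0.086). Rims1 was at 249.4 ± 5.90 and 227 ± 7.81 CPM (0.13 ± 0.051). Slc17a6 passed for sex in DESeq2 (adjusted p = 0.0392), which called 19 of 14788 genes. With no filter on low counts Slc17a6 and Syt2 passed (edgeR, adjusted p = 0.000266 and 0.0103), in a fit that called 112 of 24147 genes, against 9 of 14788 with the filter.

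Markers of 2 other cell lists are given beside these values, with 0 markers of either list past the adjusted p for sex in edgeR. The 11 interneuron markers summed to 829.6 to 927 CPM in females and 769.7 to 789.7 CPM in males. The mean was higher in females for 9 of them, and 4 (Gad2, Npy, Erbb4 and Kcnc2) had an unadjusted p under 0.05 in edgeR. Over all 14788 genes tested, 7080 had a positive sex difference and 6.05% such a p. In the lists not given here, markers with a higher mean in females ran from 0 of 5 (CA2) to 6 of 8 (endothelial and pericyte). The 7 markers of thalamus and subiculum summed to 260.2 to 271 CPM in females and 232 to 253 CPM in males, but 5 of the 7 had a lower mean in females, and the median log2 difference of the list was -0.035. No marker of either list was at 0 in all libraries. The 2 thalamus and subiculum markers with a higher mean in females were Fn1, at 107 CPM in females and 82.1 CPM in males, and Nts, at 5.22 and 3.73 CPM. Both had an unadjusted p under 0.05 for sex in edgeR. The females were also the more deeply sequenced libraries. The part of cell makeup and depth in the sex differences of Slc17a6, Syt2 and the others was not tested.

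**Figure D3:**
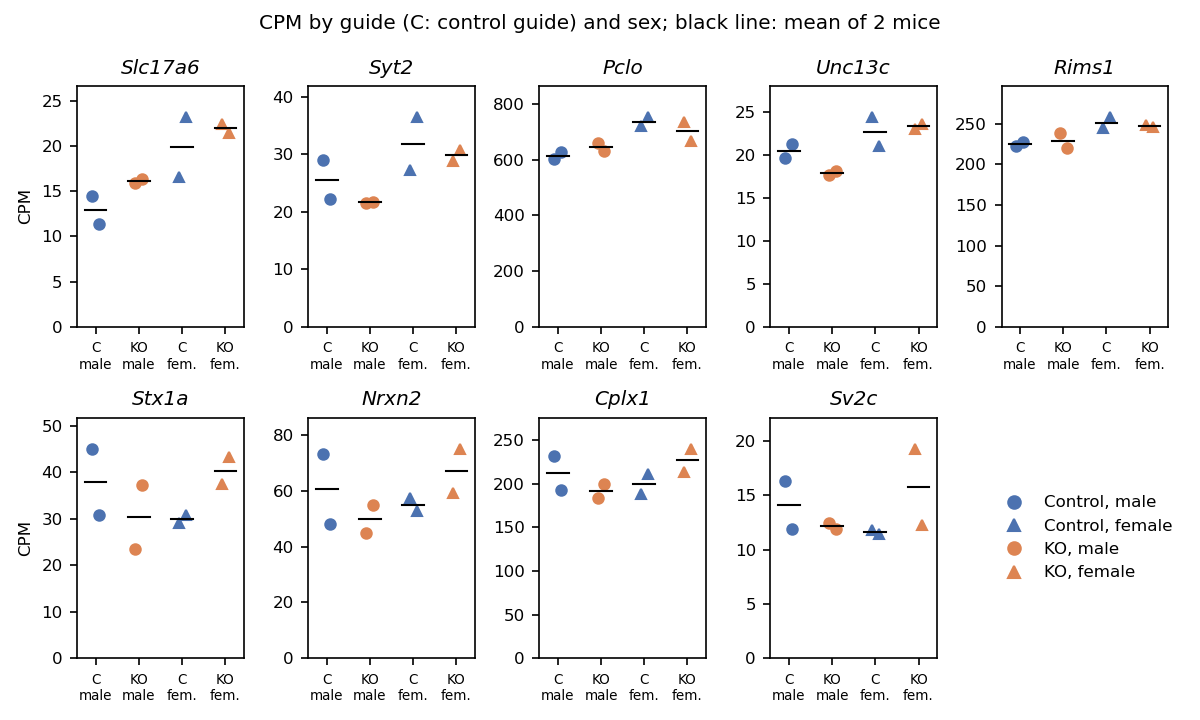
CPM in each library by guide and sex, with the mean of 2 mice as a black line, for the 5 members with the smallest p for sex (upper row) and the 4 with the smallest p for the interaction (lower row). Slc17a6 runs from 11.3 to 16.4 CPM in males and from 16.6 to 23.2 CPM in females.

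The effect of the guide was then set apart by sex, with 2 mice against 2. Within males 0 members passed (0% of all genes) and 0 had an unadjusted p under 0.05 (1.83% of all genes). Within females 0 members passed (0.0406% of all genes) and 1, Rimbp2, had an unadjusted p under 0.05 in edgeR, against 7.11% of all genes (5.21% higher), with a log2 fold change of 0.24 ± 0.098 in females and 0.042 ± 0.098 in males. For the difference between the sexes itself 0 members passed (0% of all genes, smallest adjusted p among members 0.765 in edgeR). At an unadjusted p under 0.05 there were 4 members (11.4%, against 5.42% of all genes and 3.46% with a positive difference), and in each the KO females were higher and the KO males lower than the controls of their sex by their means.

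These 4 were Stx1a, Nrxn2, Cplx1 and Sv2c. Stx1a had a log2 fold change of -0.32 ± 0.20 in males and 0.43 ± 0.20 in females, a difference of 0.74 ± 0.28. For Nrxn2 the values were -0.28 ± 0.18 and 0.29 ± 0.17 (difference 0.57 ± 0.25), for Cplx1 -0.15 ± 0.10 and 0.18 ± 0.10 (0.33 ± 0.15), and for Sv2c -0.21 ± 0.21 and 0.44 ± 0.20 (0.65 ± 0.29). Those of Sv2c rest on single libraries, control 1 among males (16.3 CPM) and KO 3 among females (19.3 CPM). All other libraries lay from 11.5 to 12.4 CPM for Sv2c. Within males the library that stood high was control 1, at 45.0 CPM for Stx1a and 73.0 CPM for Nrxn2, against 30.8 and 48.0 CPM in control 3, the other control male. KO 1 was the lowest of all libraries for these genes, at 23.6 and 44.8 CPM. KO 2, the other KO male, was above control 3, at 37.4 and 55.0 CPM. The males had the same order for Cplx1. Stx1a passed for the interaction with no filter on low counts (edgeR, adjusted p = 0.0162), where 100 of 24147 genes were called, and in no other setting run.

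Libraries also differed in how the level of a gene depended on the GC content of its transcripts. A slope of log2 CPM against GC content was taken in every library over genes with a mean of at least 1 CPM, as a log2 difference per 10 percentage points of GC. It was 0.14, -0.054, -0.091 and -0.12 in controls, and -0.16, 0.088, 0.032 and 0.16 in KO mice. The 12 members of highest GC content (54.2% to 62.4%), among them Stx1a, Nrxn2, Bsn, Cplx1 and Syngr1, had mean log2 levels of 0.17, -0.036, -0.064 and -0.065 in controls and -0.16, 0.096, 0.081 and 0.13 in KO mice, with the control mean set to 0. These members were high in the libraries with a positive slope and low in those with a negative slope. The members are themselves among the genes from which the slopes were taken. The 12 members of lowest GC content (38.7% to 46.8%), among them Snap25, Syt1, Pclo and Slc17a6, were at -0.093, 0.029, -0.039 and 0.10 in controls and -0.022, -0.033, 0.082 and 0.040 in KO mice, where the 4 females were the 4 highest libraries.

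**Figure D4:**
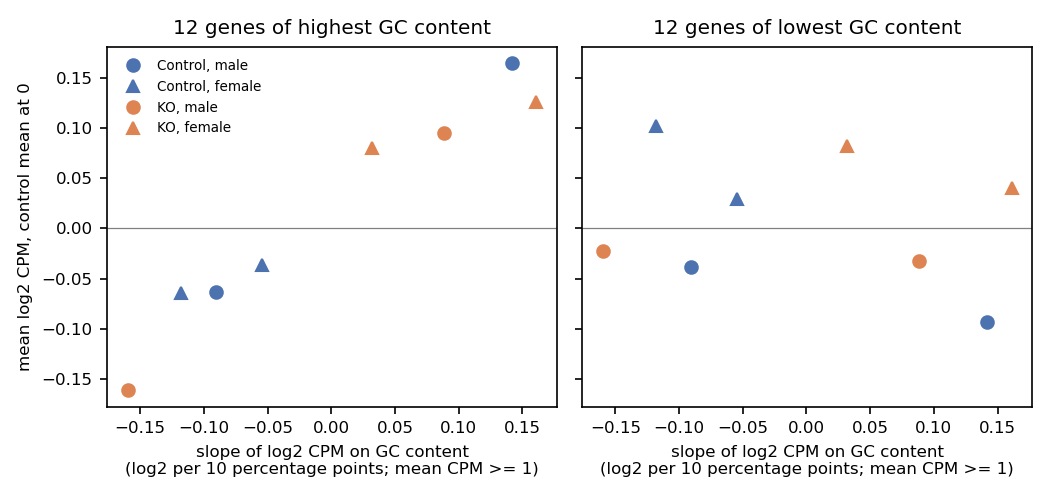
Mean log2 CPM of the 12 members of highest and the 12 of lowest GC content in each library (vertical axis, control mean at 0) against the library's slope of log2 CPM on GC content over genes with a mean of at least 1 CPM (horizontal axis). The members of high GC content run from -0.16 in KO 1 to 0.17 in control 1; in the right panel females lie above males.

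With that slope as a further covariate, the sex-by-guide difference of Stx1a was 0.19 ± 0.15, that of Nrxn2 0.060 ± 0.14 and that of Cplx1 0.14 ± 0.12. Among females the slope itself went with the guide, at -0.054 and -0.12 in controls and 0.032 and 0.16 in KO mice. In females the part of the slope and that of the guide in these differences therefore cannot be told apart here. Among males the slope took both signs within each guide, at 0.14 and -0.091 in controls and -0.16 and 0.088 in KO mice. Stx1a in the same males was at 45.0 and 30.8 CPM in controls and 23.6 and 37.4 CPM in KO mice. The part of the slope within males was not tested. Sv2c, at 47.8% GC, had a difference of 0.66 ± 0.35, which no longer had an unadjusted p under 0.05 in edgeR. In that fit 0 members had such a p for the interaction, and the share over all genes was 2.98%. For sex 12 members did, and the share over all genes was 13.2%. For sex in that fit, Slc17a6 was at 0.53 ± 0.11 and Pclo at 0.20 ± 0.032, and Pclo passed (edgeR, adjusted p = 0.0237), 1 of 42 genes called. For the guide, 0 members passed in that fit, and the median log2 fold change was -0.0026.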

How the data were processed

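For each mouse the authors deposited a file of raw counts over 37315 Ensembl identifiers, of which 0 name no gene. The 8 columns of a further table were not used. Libraries were made with a TruSeq stranded mRNA kit, per the labels' protocols. The build mm10 and the tools HTSeq 2.0.1, TopHat2 2.1.1 and Trimmomatic 0.33 are named without roles, per the submitters' processing notes. Annotation release and strand setting were not given in the sources used here. Symbols were found for 35449 identifiers, and exon lengths and GC content came from GENCODE M21 (GRCm38).

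All genes were fitted with the quasi-likelihood F test of edgeR 4.0.16 (R 4.3.3), with a term for sex and 5 residual degrees of freedom. Libraries were scaled by TMM, and filterByExpr removed low genes (count under 10, total under 15). Calls used a Benjamini-Hochberg adjusted p of 0.05 over 14788 genes. CPM values used TMM library sizes, and mean log2 CPM a prior count of 2. Standard errors are the log2 fold change over the square root of F. Replicates are separate mice. The members and gene lists were chosen with earlier results of these data known. All members are accounted for; per-library values are given for the 6 smallest p for the guide, the extremes of level per kb, the lead gene of each family and up to 4 genes with an unadjusted p under 0.05 for sex or interaction. Of the wider list, the 3 genes with the smallest p per direction are named. Alternatives were other scalings (RLE, upper quartile), no filter or a mean of at least 1 CPM, DESeq2 1.42.0, limma 3.58.1 voom, other covariates and leaving out each library. On simulated counts for 14620 genes, with 50 changed at each size, the guide test recovered 28% at a change of 25%, 84% at 1.5-fold and 98% at 2-fold, and called 12 unchanged genes. All sizes were changed in a single run, among genes with a mean of at least 50 counts, so Doc2a is not covered. The adjusted p depends on how many genes change. In the data 2 of 14788 genes passed, so the shares recovered there may be lower.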

Additional observations from a re-analysis of the deposited data

Results flagged for a closer look

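In 4 of 70 groups of 4 libraries (35 members, both guides), a single library lay far from the other 3 by Dixon's criterion, and chance flags about 1 in 20 groups. Sv2c was high in control 1 at 16.3 CPM, against 11.5 to 11.9 CPM in the other controls, and high in KO 3 at 19.3 CPM, against 11.9 to 12.4 CPM. Vamp2 was low in control 2 at 730.4 CPM, with the other controls at 778 to 779.7 CPM. Stx1a was high in control 1 at 45.0 CPM, with the others at 29.2 to 30.9 CPM.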

How the results depend on the processing

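The count of members called for the guide was 0 under each alternative run. Over all genes, 0 to 2 were called in these runs, and 84 of 24147 with no filter on low counts. With so few genes called, a count of 0 among 35 members says little about them. The median log2 fold change of the members ran from -0.0026 with the GC slope as covariate to 0.027 without KO 1. No paired analysis was possible because the replicate numbers were given in listing order and pair no mice. Among members that did not pass, signs for the guide changed in up to 10 of 35 in a single setting, the fit that includes the GC slope. For the interaction, signs changed in 11 of 35 in that setting. Over the fits that leave out a library, the log2 fold change of Sik3 ran from -0.85 (KO 4) to -0.70 (KO 1), both of which passed. Its call was lost without control 2, control 3, KO 2 or KO 3, at log2 fold changes from -0.80 to -0.75, and with an oligodendrocyte marker score as a covariate (-0.73, edgeR, adjusted p = 0.0749), a setting added after seeing the data. The adjusted p of Sik3 was 0.108 without control 2, 0.0866 without control 3, 0.0865 without KO 2 and 0.242 without KO 3. The count of members called for sex was 0, but 2 with no filter on low counts (112 of 24147 genes called), 1 with DESeq2 (19 of 14788) and 1 when the GC slope was included (42 of 14788), also added after seeing the data, against 9 of 14788 genes in the reported fit. The count for the interaction was 0, but 1 with no filter (100 of 24147). The cause was not tested. The largest shift of the median of all genes under another scaling was under 0.1 log2 units. Depth limited Doc2a most, with 26 to 46 counts a library.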
